A study of Mus musculus with 4 samples.

Results

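The enzymes of the tricarboxylic acid (TCA) cycle, the pyruvate dehydrogenase complex that feeds it, and the anaplerotic and gluconeogenic enzymes that exchange carbon with it were followed from step to step in gonadal white adipose tissue (WAT) of wild-type and FSP27-deficient mice. The rule lists 29 genes by their symbols, and 28 of them are read here by 53 probe sets that carry no other symbol, among 12394 genes named in this way. Pdhx, the dihydrolipoamide dehydrogenase binding protein of the pyruvate dehydrogenase complex, was not analysed here. All 28 reached the mean signal of 100 set for testing, as did 8523 genes in all. The mice were C57BL/6J males aged 3 months, with a null allele of Fsp27 or wild-type for it, and were on normal chow. RNA of 5 mice of each genotype was pooled (45 μg), and each pool was hybridised in duplicate, giving 2 FSP27-deficient and 2 wild-type Affymetrix arrays. A log2 change is the mean of log2(signal + 16) in FSP27-deficient WAT minus that in wild-type WAT, with its standard error (SE) from limma. Signals are given as pairs, replicate 1 before replicate 2, in the intensity units of the Affymetrix GeneChip Operating Software (GCOS). Cidec, which encodes FSP27, had signals of 8564 and 8949 in FSP27-deficient WAT, lower than the 20491 and 18255 of wild-type WAT but not lost. The sources used here do not say where its probe set lies relative to the deleted part.

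Pyruvate enters mitochondria and is converted to acetyl-CoA by pyruvate dehydrogenase, and citrate synthase joins this acetyl group to oxaloacetate. The cycle then oxidises the carbon to CO2 and passes the electrons to the respiratory chain as NADH and as reduced ubiquinone. Anaplerotic enzymes refill the cycle with oxaloacetate, 2-oxoglutarate or malate, and in white fat the export of citrate supplies carbon to fatty acid synthesis. Brown fat, which oxidises fuel to make heat, is known for a much higher content of mitochondria than white fat.

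Enzymes of the mitochondrial cycle itself, or that carry pyruvate into it, were higher in FSP27-deficient WAT at most steps. The cytosolic and NADP-linked counterparts and the side enzymes went both ways. Among the 15 tested members of the mitochondrial cycle or of pyruvate dehydrogenase, 12 rose and none fell. All 15 had a log2 change above 0, with a median of 1.06. Of the other 13 genes 2 rose, Mdh1 and Pcx, and 1 fell, Got2, with a median of 0.18. Some of these 13, such as Got2, Idh2 and Me2, are mitochondrial too. The 2 sets also differed in signal, which affects how readily a gene is called. Mean signals lay at percentiles 62.4 to 98.8 of all genes tested for the 15 and 19.1 to 98.3 for the 13. The SE ran from 0.16 to 0.31 and from 0.15 to 0.71. The part of signal level in this contrast was not tested. At an adjusted p under 0.05 limma called 14 of the 28 genes higher (50%) and 1 lower (3.57%), where 5.78% of all genes tested were called higher and 6.51% lower. The median log2 change of the 28 genes was 0.86, and that of all genes tested was -0.083. The study's fold criterion asks for mean signals that differ 1.41-fold or more and for consistent duplicates. Here each FSP27-deficient array was set against the wild-type array of the same number, and both ratios had to go the same way. This was passed by 18 genes upward (64.3%) and by 2 downward (7.14%). Of all genes tested, 14.4% passed upward and 20.6% downward, 34.9% in both directions together. The arrays did not overlap, with the FSP27-deficient pair above, for 19 genes (67.9%, against 22.7% of all genes tested), and with it below for 5 (17.9%, against 31.4%).

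Because the duplicates are hybridizations of 1 pool, every p-value measures only how far arrays spread, not mice. With 4 arrays, 0.333 is the smallest p of an exact two-sided permutation test. The calls also need a spread that may vary with signal, since limma without this trend called 0 of the 28 genes at an adjusted p under 0.05 (14 higher and 2 lower at an unadjusted p under 0.05), and the methods' t-test also called 0 after adjustment (14 higher and 1 lower unadjusted).

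Markers of other cell populations moved with genotype in the same RNA. Adipocyte markers were present on every array, with 6 of 8 measured and a summed signal of 185466 to 197179 in FSP27-deficient and of 150198 to 168730 in wild-type WAT. Of these 6, Pnpla2 was higher (log2 change 0.73, adjusted p 0.0092) and Lep lower (-1.33, adjusted p 8.8e-04). Brown adipocyte markers, 6 of 7 measured, summed to 20119 to 24574 against 978 to 1279, with 5 of 5 tested higher and with Ucp1, untested, at 157 and 31.3 versus 18.9 and 12.9. The macrophage list, 8 of 8 measured, summed to 6177 to 7406 against 15575 to 16987, and 5 of 7 tested genes were lower. Fibroblast markers, 6 of 6 measured, summed to 22365 to 24498 against 40344 to 42134, with 4 lower, and mesothelial markers, 4 of 6 measured, to 1006 to 1409.9 against 3149 to 3597, with 2 lower. Their part in the results for the cycle enzymes was not tested. Skeletal muscle markers, 6 of 6 measured, stayed at a sum of 681 to 935 against 768 to 958, with 1 tested and 0 called. The granulocyte, lymphocyte and endothelial lists had 1 gene lower each (Prtn3, Ptprc and Pecam1), of 3, 2 and 6 tested. In the granulocyte and lymphocyte lists other genes went the other way, such as Elane (94.2 and 162 versus 15.7 and 9.15) and Cd3e (201 and 140 versus 21.9 and 31.0), both untested. The sums of these lists overlapped, at 959 and 696 versus 649 and 1205 for granulocytes and 705 and 467 versus 827 and 586 for lymphocytes. No direction is therefore given for either list. The epididymis list, 3 of 6 measured and 1 tested, had 0 called and summed to 174 and 165 versus 116 and 639, so that wild-type replicate 2 stood above the other 3 arrays. Median signals of the arrays were 165 to 193. In such whole-tissue RNA, a change in the number of cells of a type and a change in RNA per cell cannot be told apart. The ratio of the 3' to the 5' control probe set was, for Gapdh, 0.774 and 0.824 versus 0.885 and 0.866 and, for Actb, 2.82 and 2.99 against 2.47 and 2.93 (FSP27-deficient before wild-type).

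**Figure D1:**
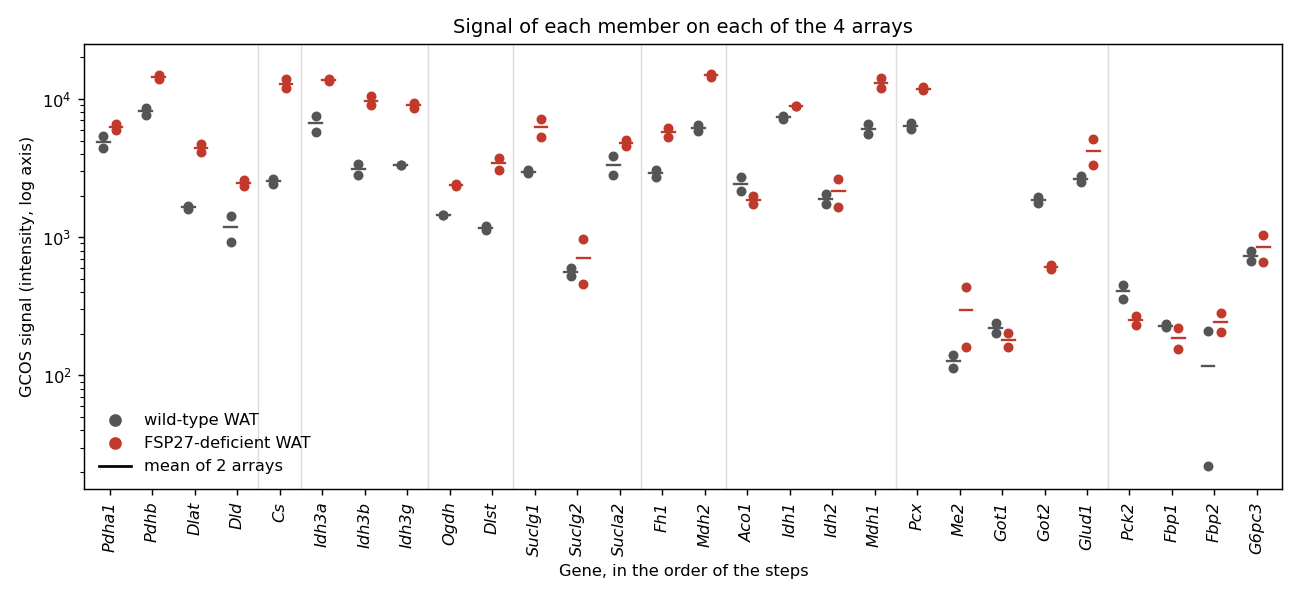
GCOS signal (log axis) of the 28 genes, in the order of the steps, where every dot is 1 array (red for FSP27-deficient, grey for wild-type) and short bars mark genotype means. The red dots lie above the grey dots for 19 genes, such as Cs, and below them for 5, such as Got2, while for Fbp2 1 wild-type dot, at 22.0, lies far below the other 3.

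Promoters of some called members, chosen by their change or by a motif match, are shown to place the values on sequence. They run from 250 bases before to 50 after the annotated start (RefSeq, GRCm38.p6, read 5′ to 3′ on the strand of the gene). Windows were found for 27 of the 29 genes. Cs is the member with the largest rise by the brightest probe sets, and Got2 is the one called lower. Idh3b, Idh3g and Dlst are the called members whose windows hold CCGGAAG, printed in capitals, the core bound by GABP and other ETS factors.
Cs (chr10:128337477-128337776, plus strand): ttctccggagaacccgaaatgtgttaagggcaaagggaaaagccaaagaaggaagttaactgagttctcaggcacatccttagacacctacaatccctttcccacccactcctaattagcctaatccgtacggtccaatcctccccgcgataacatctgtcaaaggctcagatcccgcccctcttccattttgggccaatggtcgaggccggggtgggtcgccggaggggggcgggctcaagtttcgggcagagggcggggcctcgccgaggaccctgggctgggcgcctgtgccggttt
Idh3b (chr2:130284402-130284701, minus strand): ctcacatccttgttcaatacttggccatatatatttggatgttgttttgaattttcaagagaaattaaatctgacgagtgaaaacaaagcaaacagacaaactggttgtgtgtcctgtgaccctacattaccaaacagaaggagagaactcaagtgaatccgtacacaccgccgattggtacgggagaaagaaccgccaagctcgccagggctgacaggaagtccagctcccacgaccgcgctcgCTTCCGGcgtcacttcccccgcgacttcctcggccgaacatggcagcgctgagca
Idh3g (chrX:73786848-73787147, minus strand): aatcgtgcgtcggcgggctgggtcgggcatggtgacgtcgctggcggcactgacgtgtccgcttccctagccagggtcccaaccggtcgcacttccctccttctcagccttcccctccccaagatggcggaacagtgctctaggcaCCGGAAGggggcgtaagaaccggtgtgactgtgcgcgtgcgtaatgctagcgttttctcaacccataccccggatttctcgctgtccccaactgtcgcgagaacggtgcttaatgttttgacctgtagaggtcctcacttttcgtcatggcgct
Dlst (chr12:85110583-85110882, plus strand): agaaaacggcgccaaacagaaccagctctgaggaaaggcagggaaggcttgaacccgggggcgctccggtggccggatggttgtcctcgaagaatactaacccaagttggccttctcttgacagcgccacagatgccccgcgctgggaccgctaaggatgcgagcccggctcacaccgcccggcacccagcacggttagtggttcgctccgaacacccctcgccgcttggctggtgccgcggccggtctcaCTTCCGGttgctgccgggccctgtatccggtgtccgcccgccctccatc
Got2 (chr8:95888352-95888651, minus strand): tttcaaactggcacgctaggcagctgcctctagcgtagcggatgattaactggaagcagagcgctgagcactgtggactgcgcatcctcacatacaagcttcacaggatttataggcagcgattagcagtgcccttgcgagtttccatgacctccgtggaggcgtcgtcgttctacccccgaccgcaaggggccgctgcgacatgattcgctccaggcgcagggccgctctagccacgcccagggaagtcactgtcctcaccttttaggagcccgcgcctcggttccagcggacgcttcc
CCGGAAG, searched on both strands, was found in 4 of 27 genes (14.8%), the other being Glud1, and in 9.93% of all 27025 genes with a window. In Dlst the match begins at base 2 of the transcript and in Idh3b 5 bases before the start, both on the opposite strand and so printed as CTTCCGG. In Idh3g it begins 104 bases before the start. The NRF1 motif, GCGCA and GCGC with any base between them, was found for Dld and Sucla2 (7.41%, against 5.19% of all genes). TNAAGGTCA, bound by estrogen-related receptors, and the PPAR motif, a pair of AGGTCA with any base between them, both of which hold AGGTCA, were found in 0 of 27 genes, against 1.43% and 0.0481% of all genes. None of these matches says that a factor binds there, and a missing match says only that these letters are not in this window.

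At the entry to the cycle, 3 of the 4 measured subunits of the pyruvate dehydrogenase complex rose. Dlat, the E2 subunit that carries the acetyl group on lipoic acid, gave 4713 and 4114 in FSP27-deficient versus 1603 and 1686 in wild-type WAT. It was 2.68-fold higher, a log2 change of 1.41 ± 0.18 SE (adjusted p 3.7e-04 from limma). Dld, the E3 subunit that reoxidises the lipoic acid and also serves the 2-oxoglutarate dehydrogenase complex, gave 2593 and 2359.6 versus 928 and 1433, so that the wild-type arrays stood far apart. Its log2 change was 1.09 (standard error 0.22, adjusted p 0.0078), and 0.78 with an adjusted p of 0.11 without wild-type replicate 1. The 2 genes of the E1 subunits, which decarboxylate pyruvate, had the smaller changes of the complex by the brightest probe sets. Pdhb, the E1 beta subunit, gave 14063 and 14851 versus 7631 and 8622, with a log2 change of 0.83 ± 0.16 SE (adjusted p 0.0044, and 0.080 without wild-type replicate 1). Its dimmer probe set gave 372 and 277 versus 286 and 224, which overlap (log2 change 0.33, adjusted p 0.57 over all probe sets), and over the mean of both the adjusted p for Pdhb was 0.055. Pdha1, the X-linked E1 alpha subunit, gave 5939.9 and 6556 versus 4389 and 5396. These arrays of the genotypes did not overlap, but the log2 change of 0.36 did not pass the test (95% interval -0.02 to 0.73, adjusted p 0.22). The dimmer probe set of Pdha1, at 3762 and 4069 versus 2369.6 and 2606, had a log2 change of 0.65, with an adjusted p of 0.032 over all probe sets.

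Citrate synthase and all 3 subunits of the NAD-linked isocitrate dehydrogenase rose. Cs, the citrate synthase that condenses acetyl-CoA with oxaloacetate, gave, by its brightest probe set, 11925 and 13862 versus 2430.3 and 2639.9. It was 5.09-fold higher, and its log2 change of 2.34 ± 0.17 SE (adjusted p 1.7e-05 from limma) was exceeded by 15 of the 8523 genes tested. Over the mean of its 3 probe sets the log2 change was 1.58, below the 1.61 of Idh3b by the same averaging. The lead of Cs among the members thus depends on the choice of probe set. Idh3a, the catalytic subunit of the enzyme that turns isocitrate into 2-oxoglutarate, gave 13597 and 13973 versus 5752 and 7559 (log2 change 1.06 ± 0.17 SE, adjusted p 0.0020). The regulatory subunits Idh3b and Idh3g changed by somewhat more in these arrays. Idh3b gave 10428 and 9054 versus 2827 and 3403, a 3.13-fold difference (log2 change 1.64 ± 0.17 SE, adjusted p 1.2e-04), and Idh3g gave 9375 and 8630.5 versus 3301 and 3301 (log2 change 1.44 ± 0.16 SE, adjusted p 1.7e-04). Whether the subunits differ from each other in their change was not tested. All 7 probe sets of the 3 subunits passed the test on their own, with log2 changes of 0.80 to 1.64.

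The 2-oxoglutarate dehydrogenase complex, which makes succinyl-CoA, was higher in both of its own subunits. Dlst, its E2 subunit, gave 3076 and 3754 versus 1133 and 1213, a log2 change of 1.52 ± 0.19 SE (adjusted p 3.5e-04 from limma). Ogdh, its E1 subunit, gave 2337 and 2441 versus 1456 and 1449, with narrow pairs on both sides and a log2 change of 0.71 ± 0.18 SE (adjusted p 0.023). The call of Ogdh was lost without either wild-type array, with an adjusted p of 0.15 in both cases. By the brightest probe sets, the E2 gene of each dehydrogenase complex, Dlat or Dlst, thus had a larger log2 change than any gene of the E1 subunits. This difference was not tested. The dimmest probe set of Dlat had a log2 change of 0.50, below the 0.83 of the brightest of Pdhb.

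Succinyl-CoA ligase, which makes a nucleoside triphosphate directly in the cycle, was called in 1 of its 3 genes. Suclg1, the alpha subunit shared by both forms of the enzyme, gave 5342 and 7107 versus 3066 and 2894 (log2 change 1.04 ± 0.18 SE, adjusted p 0.0032 from limma). The beta subunits decide which nucleotide is used, and neither passed the test. Sucla2, the beta subunit of the ADP-forming enzyme, gave 5063 and 4559.9 versus 3839 and 2820.3, which do not overlap (log2 change 0.54, 95% interval 0.13 to 0.96, adjusted p 0.088). Suclg2, the beta subunit of the GDP-forming enzyme, gave 459 and 965 versus 521 and 596, so that the FSP27-deficient pair enclosed the wild-type pair (log2 change 0.25, 95% interval -0.42 to 0.92, adjusted p 0.67, and -0.27 without FSP27-deficient replicate 2).

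The steps from fumarate to oxaloacetate rose in both genes. Fh1, fumarase, which hydrates fumarate to malate, gave 5288 and 6149.6 versus 2736 and 3046 (log2 change 0.98 ± 0.17 SE, adjusted p 0.0032 from limma). Mdh2, the mitochondrial malate dehydrogenase that closes the cycle, gave 15151 and 14482 versus 6522 and 5848 (log2 change 1.26 ± 0.16 SE, adjusted p 3.4e-04). For both genes the lower FSP27-deficient array exceeded the higher wild-type array.

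**Figure D2:**
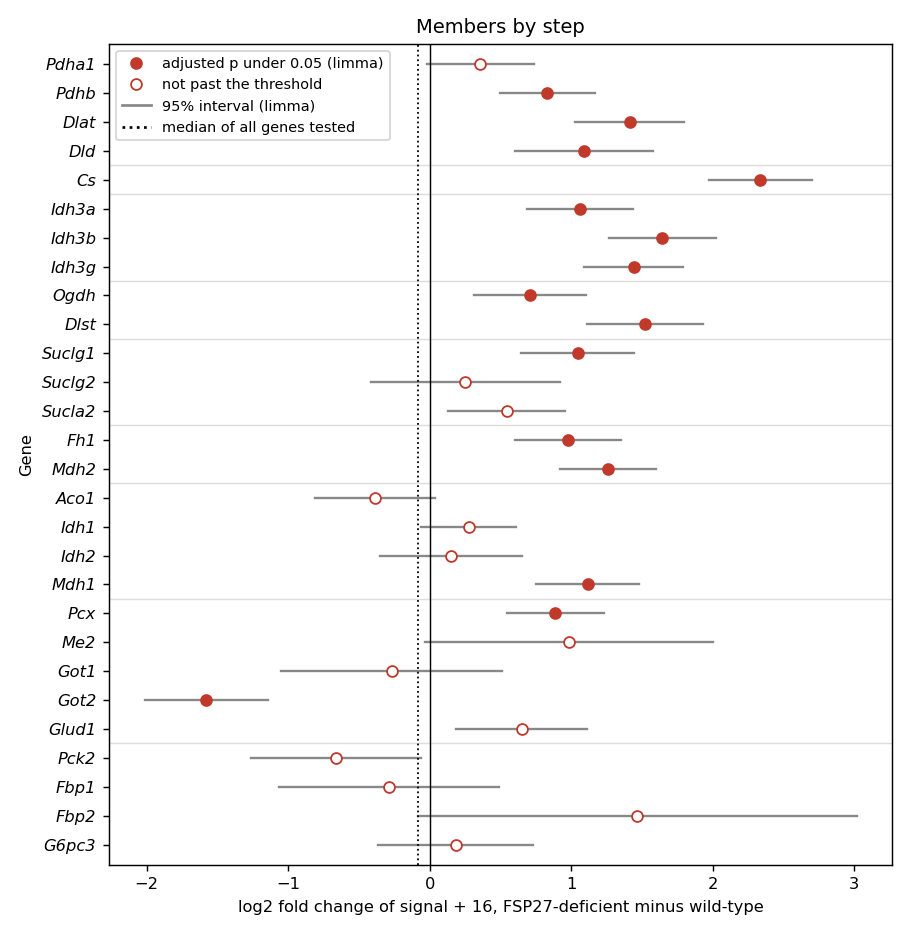
Log2 change (FSP27-deficient minus wild-type WAT) for the 28 genes from top to bottom in the order of the steps, with limma's 95% interval (filled where the adjusted p is under 0.05). Of the 15 filled points 14 lie to the right of 0 and Got2, at -1.58, lies to the left, and the dotted line marks the median of all genes tested, -0.083.

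The cytosolic and NADP-linked counterparts of the cycle enzymes were called in 1 of 4 genes. Mdh1, the cytosolic malate dehydrogenase of the malate-aspartate shuttle, gave 12048 and 14178 versus 5545 and 6543, a 2.17-fold difference (log2 change 1.12 ± 0.17 SE, adjusted p 0.0012 from limma). The NADP-linked isocitrate dehydrogenases, which supply NADPH, differed by less. Idh1, the cytosolic form, gave 8891 and 8915 versus 7193 and 7509, which do not overlap (log2 change 0.28, 95% interval -0.06 to 0.61, adjusted p 0.30). Idh2, the mitochondrial form, gave 2653 and 1647 versus 2037 and 1739.7 (log2 change 0.15, 95% interval -0.35 to 0.65, adjusted p 0.74), and its sign turned to -0.19 without FSP27-deficient replicate 1. Aco1, the cytosolic aconitase that also acts as an iron regulatory protein, was read in opposite directions by its probe sets. Its brighter probe set gave 1982 and 1732 versus 2715 and 2165 (log2 change -0.39, 95% interval -0.81 to 0.04, adjusted p 0.24), and the other gave 1744 and 1876 versus 1412 and 1265 (log2 change 0.43, adjusted p 0.20 over all probe sets). No direction is therefore given for Aco1.

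Among the enzymes that refill the cycle or link it to amino acids, pyruvate carboxylase rose and the mitochondrial aspartate aminotransferase fell. Pcx, which makes oxaloacetate from pyruvate, gave 12195 and 11532 versus 6715 and 6097 (log2 change 0.89 ± 0.16 SE, adjusted p 0.0032 from limma). The array carries control probe sets along its transcript, and these signals are of the 3' control, the brightest probe set of the gene. Its ordinary probe set gave 10945 and 11360 versus 7267 and 6688 (log2 change 0.68, adjusted p 0.016 over all probe sets). All 5 probe sets of Pcx had log2 changes of 0.65 to 0.89. The dimmest, the 5' control, and the next, a middle control, did not pass (adjusted p 0.13 and 0.073 over all probe sets). The ratio of the 3' to the 5' probe set of Pcx was 7.62 and 10.8 on the FSP27-deficient and 6.82 and 8.73 on the wild-type arrays. Got2, which exchanges amino groups between aspartate and 2-oxoglutarate in mitochondria and is the partner of Mdh2 in the malate-aspartate shuttle, gave 592 and 625 versus 1952 and 1752. It was 3.04-fold lower, a log2 change of -1.58 ± 0.20 SE (adjusted p 3.8e-04). Its other probe set, at 243 and 195 versus 570.3 and 598, gave -1.36 on the log2 scale (adjusted p 0.0053 over all probe sets). The call held with any array left out (highest adjusted p 0.0078). Both probe sets of Got2 thus placed every FSP27-deficient array below every wild-type array.

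Glutamate dehydrogenase, malic enzyme and the cytosolic aspartate aminotransferase did not pass the test. Glud1, which converts glutamate to 2-oxoglutarate, gave 3324 and 5127 versus 2764 and 2494 (log2 change 0.65, 95% interval 0.19 to 1.11, adjusted p 0.069 from limma, with 0.96 and an adjusted p of 0.0043 without FSP27-deficient replicate 1 and 0.34 and 0.27 without replicate 2). Me2, the mitochondrial malic enzyme that makes pyruvate from malate, gave 159 and 438 versus 114 and 141 (log2 change 0.98, 95% interval -0.04 to 2.0, adjusted p 0.21, with 1.67 and an adjusted p of 0.012 without FSP27-deficient replicate 1 and 0.30 and 0.74 without replicate 2). In both genes FSP27-deficient replicate 2 stood far above the other 3 arrays. Got1, the cytosolic partner of Got2, gave 161 and 201 versus 237 and 204 (log2 change -0.27, 95% interval -1.05 to 0.51, adjusted p 0.70).

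No gluconeogenic enzyme among the members was called, and their values went both ways. Pck2, the mitochondrial phosphoenolpyruvate carboxykinase, gave 268 and 231 versus 359 and 452 (log2 change -0.66, 95% interval -1.26 to -0.06, adjusted p 0.15 from limma). Fbp1, the fructose-bisphosphatase of liver and kidney, gave 154 and 219 versus 223 and 234 (log2 change -0.29, adjusted p 0.67). Both had the 2 FSP27-deficient arrays below the wild-type arrays. Fbp2, the form of muscle, gave 204 and 282 versus 22.0 and 211, where the log2 change of 1.47 (adjusted p 0.22) became 0.18 without wild-type replicate 1. G6pc3, the glucose-6-phosphatase found in most tissues, gave 1044 and 658 versus 668 and 793 (log2 change 0.18, adjusted p 0.70, and -0.14 without FSP27-deficient replicate 1). The median of these 4 genes, a log2 change of -0.05, turned to 0.048 after quantile normalization and to 0.0191 after centring each array on its median, so that no direction is given for them.

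Genes read by several probe sets showed how far these sizes depend on the probe set. Of the 25 probe sets beside the brightest ones, in 17 genes, 24 had the sign of the brightest and 1, of Aco1, had the opposite sign. The change was smaller than by the brightest probe set in all but those of Pdha1, Idh1 and Aco1. Only 12 of the 25 were called higher and 1 lower, and 2 had a mean signal under 100. Those not called include 1 of Mdh1 (log2 change 0.58, adjusted p 0.096 over all probe sets) and the dimmer 1 of Dlst (0.94, adjusted p 0.15). Among the genes called, Cs had the widest range, with log2 changes of 2.34, 1.40 and 1.0, each past the test over all probe sets. Dlat, whose brightest probe set may, by its type, also match related transcripts, as may those of Aco1, Idh1 and Idh3b, had 1.41, 1.36 and 0.50, of which the last did not pass (adjusted p 0.23 over all probe sets). Over probe sets, 26 of 51 tested were called higher and 2 lower, where 5.06% and 5.59% of all 13225 probe sets tested were called.

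**Figure D3:**
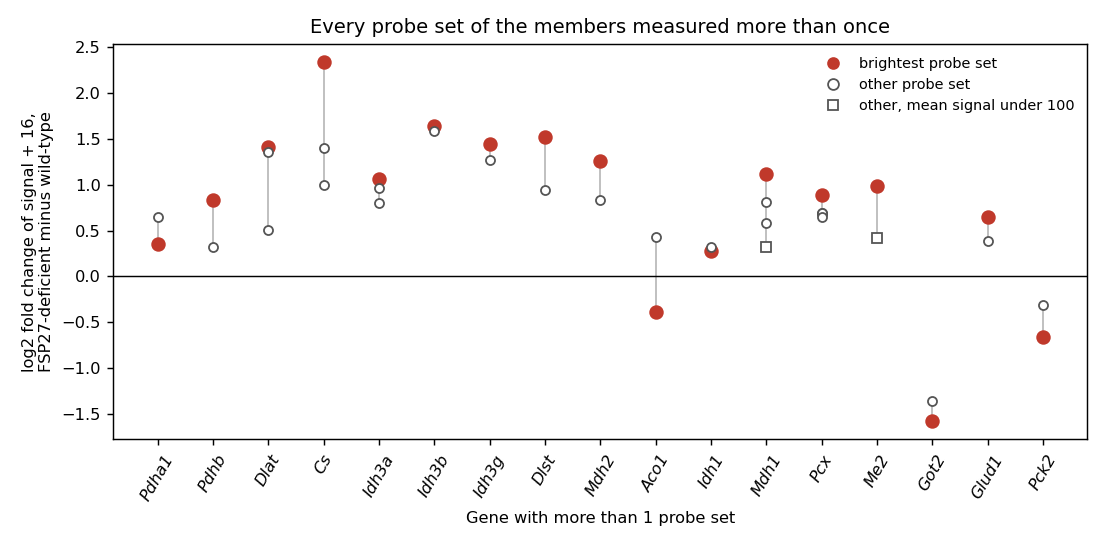
Log2 change (FSP27-deficient minus wild-type WAT) for each probe set of the 17 genes with several (red, the brightest, grey, the others, and squares, mean signal under 100). The points of a gene share a side of 0 in 16 genes, and for Aco1 they lie at -0.39 and 0.43.

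Partner enzymes were set side by side by the difference of their log2 changes, taken within each array, which depends little on how the array was scaled. In 4 of 8 pairs the arrays of the genotypes did not overlap, each with an exact permutation p of 0.333, the smallest that 4 arrays allow. Of all genes tested, taken singly, 22.7% had the FSP27-deficient arrays above and 31.4% had them below. The share over all possible pairs of genes was not computed, so the 4 pairs are not read as an excess. The difference was -1.31 for Got2 minus Got1, -1.20 for Pck2 minus Pck1 and 0.91 for Idh3a minus Idh2. With each array left out these differences ran from -1.42 to -1.20, from -1.70 to -0.69 and from 0.55 to 1.27. Pck1, the cytosolic form, was not called and gave 7158 and 12529 versus 7237 and 5886, where FSP27-deficient replicate 2 stood apart (log2 change 0.54, adjusted p 0.17). For Fbp2 and Fbp1 the difference of 1.76 rests on the wild-type array in which Fbp2 was at 22.0. The mitochondrial and cytosolic malate dehydrogenases, Mdh2 and Mdh1, had a difference of 0.14 with overlapping arrays (exact permutation p 0.667). Suclg2 and Sucla2 differed by -0.29 (exact permutation p 0.667), Idh2 and Idh1 by -0.13 and Me2 and Me1 by -0.22 (exact permutation p 1 each). With 8 pairs and this smallest p, none can pass a threshold of 0.05.

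Around these enzymes, 27 of 39 other genes of the pathway were tested, and limma called 18 higher and 2 lower, with a median log2 change of 0.67. All 4 subunits of succinate dehydrogenase, the cycle enzyme that is also respiratory complex II, rose. Their log2 changes were 1.36 for Sdhb, 1.12 for Sdha, 0.94 for Sdhd and 0.73 for Sdhc (adjusted p 3.8e-04 to 0.015). Sdhc lost its call without wild-type replicate 1 or 2 (adjusted p 0.087 and 0.15) and Sdhd without wild-type replicate 1 (0.056). The 3 carriers of substrates tested, of 7 listed, rose too. Slc25a10, the dicarboxylate carrier, gave 10336 and 8937 versus 3541 and 3856 (log2 change 1.38). The log2 change was 0.82 for Mpc1, of the mitochondrial pyruvate carrier, and 0.80 for Slc25a11, the oxoglutarate carrier of the malate-aspartate shuttle. Slc25a10 kept its call with each array left out, and Mpc1 lost it without wild-type replicate 2 (adjusted p 0.079). Slc25a11 lost its call without any 1 of 3 arrays, with an adjusted p of 0.051 without FSP27-deficient replicate 1 and of 0.20 and 0.070 without wild-type replicate 1 or 2.

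Of the 4 kinases measured that switch off pyruvate dehydrogenase, 2 rose, Pdk4 and Pdk2. Pdk4 gave 2269.6 and 2295 versus 468 and 314 (log2 change 2.52 ± 0.23 SE, adjusted p 5.5e-05 from limma), and Pdk2 gave 949 and 831 versus 399.8 and 357 (log2 change 1.20, adjusted p 0.0046). Pdk3, which did not pass the test, gave 10.2 and 157 versus 265 and 294, so that the FSP27-deficient arrays lay below (log2 change -2.13, 95% interval -3.79 to -0.48, adjusted p 0.094). Pdk1 gave 341 and 362 versus 293 and 373, which overlap (log2 change 0.08, adjusted p 0.89). Lipt1, which attaches the lipoic acid that Dlat and Dlst carry, had a log2 change of 1.12 (adjusted p 0.021), a call lost without FSP27-deficient replicate 1 and without either wild-type array (adjusted p 0.094, 0.099 and 0.12) and with no filter on low signals (0.076). Of the same lipoic acid list, Lias, at a log2 change of 0.34, and Lipt2, at 0.32, were not called. At citrate and malate the 2 genes next to fatty acid synthesis went apart. Me1, the cytosolic malic enzyme that makes NADPH, gave 13742 and 13139.9 versus 5115 and 6627 (log2 change 1.20, adjusted p 8.8e-04), and Acly, which splits exported citrate into acetyl-CoA, gave 4854 and 5087 versus 9244 and 8796 (log2 change -0.86, adjusted p 0.0041, and 0.062 without wild-type replicate 1).

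Propionyl-CoA, which enters the cycle as succinyl-CoA, was represented by Pcca, a subunit of its carboxylase, with a log2 change of 1.02 (adjusted p 0.0043 from limma), and by Mcee, the epimerase of the next step, with 1.01 (adjusted p 0.0046). Abat, the transaminase that degrades GABA, gave 10.2 and 122 versus 476 and 473 (log2 change -3.03 ± 0.65 SE, adjusted p 0.0097, and 0.12 and 0.13 without wild-type replicate 1 or 2). The signal of 10.2 lay below the lower quartile of its array, 55.9, so that the size of this fall is uncertain. Without wild-type replicate 1, 9 of these 27 genes were called higher, and without wild-type replicate 2, 9 higher and 1 lower. Fewer calls remained over all genes in those fits too, 216 higher and 192 lower without wild-type replicate 1 and 270 higher and 200 lower without wild-type replicate 2.

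**Figure D4:**
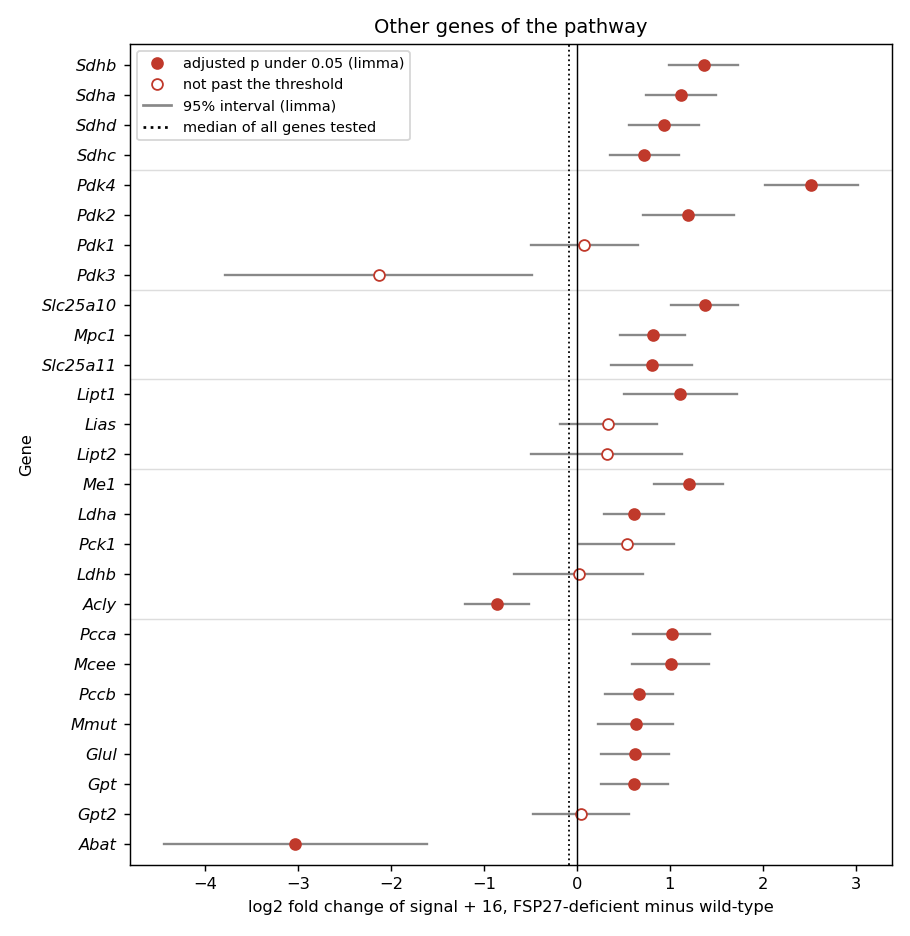
Log2 change (FSP27-deficient minus wild-type WAT) for 27 other genes of the pathway, grouped as succinate dehydrogenase, pyruvate dehydrogenase kinases, carriers, lipoic acid enzymes, enzymes at citrate, malate, pyruvate and phosphoenolpyruvate, and amino acid entry, with limma's 95% interval (filled, adjusted p under 0.05). Filled points lie to the right of 0 for 18 genes and to the left for Acly, at -0.86, and Abat, at -3.03.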

How the data were processed

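Total RNA of gonadal WAT from 5 mice of each genotype was pooled and hybridised in duplicate to Affymetrix arrays. The authors processed the arrays with GCOS, and the deposited values are its signals, intensity values of 22690 probe sets with no log taken. No source used here gives its version or scaling target. Gene symbols came from the platform's annotation, which gives 20393 probe sets 1 symbol and 691 several, which were not used, and 1606 are unnamed here.

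Each gene was read from the brightest, by mean signal, of its probe sets of 1 symbol. If that mean reached 100, the gene was tested by limma 3.58.1 under R 4.3.3 (lmFit with genotype as the term, then eBayes with a trend on the signal) after taking log2(signal + 16), with Benjamini-Hochberg adjustment over all 8523 genes tested and a threshold of 0.05. Log2 fold changes are on that scale, which understates those of low signals. The number of arrays limits the precision, since 2 degrees of freedom remain, or 12.1 after the prior's are added. The members, lists and alternatives were chosen with earlier results of these data known. Every member was named, and of the other pathway genes the 15 largest changes among those called. The limma steps were run on data simulated from the fitted trend itself, so that run cannot judge whether the trend is apt. Partner enzymes were compared by exact two-sided permutation of the arrays. The alternatives were other pseudocounts, filters, scalings and choices of probe set, no trend, the methods' t-test, the replicate number as a block and each array left out, with the probe sets and genes tested kept. Where an array was left out, the spread came from the other genotype's pair. Real-time PCR and protein data were not analysed here.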

Additional observations from a re-analysis of the deposited data

How the results depend on the processing

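Beside the settings without a trend and the methods' t-test, the 15 called members kept their direction in all 195 fits over 13 alternatives and lost the call in 5, those of Dld, Pdhb and Ogdh with a wild-type array left out, as given above, and that of Pdhb when its probe sets were averaged (adjusted p = 0.055). Members called by limma numbered 0 higher and 0 lower both without a trend and by the methods' t-test after adjustment, and 26 higher and 2 lower over every probe set on its own, which counts probe sets. Leaving out each array gave 11 to 16 members higher, 1 lower in each case, 17 to 18 past the fold criterion upward and 2 to 3 downward, and a median log2 fold change of 0.74 to 0.92. That median was 0.71 after quantile normalization and 0.70 over the mean of the probe sets. With both duplicates past the fold, 1 member passed downward and 14 upward. The other genes of the pathway gave 0 higher and 0 lower calls by limma without a trend (18 and 2 at an unadjusted p under 0.05), and 9 to 16 higher and 0 to 3 lower with an array left out. With the replicate block limma called 16 members higher and 1 lower, adding Glud1 (adjusted p = 0.015) and Sucla2 (adjusted p = 0.023), and over all genes 635 higher and 831 lower, against 493 and 555. The deviations of same-numbered arrays correlated at 0.07 across genes and no label ties the numbers, so the main limma fit did not pair them. The fold criterion did set same-numbered arrays against each other, so its counts depend on that numbering. Signs turned for Aco1 (0.023 when its probe sets were averaged) and, with an array left out, for G6pc3 (-0.14 to 0.51), Idh2 (-0.19 to 0.49) and Suclg2 (-0.27 to 0.78). The median of the gluconeogenic enzymes was 0.048 after quantile normalization, 0.0191 after centring and -0.13 to 0.025 with an array left out. Among partner enzymes the difference turned with an array left out for Idh2 and Idh1 (-0.47 to 0.22), Mdh2 and Mdh1 (-0.053 to 0.34), Me2 and Me1 (-0.94 to 0.50) and Suclg2 and Sucla2 (-0.89 to 0.31). Apart from the array left out or the scaling itself, the cause was not tested.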
